A study of Mus musculus with 6 samples.

Results

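Immediate-early genes were followed in 6 poly-A RNA-seq libraries of adult mouse pancreatic acinar cells, the cells that make and secrete digestive enzymes. The 10 genes were chosen by name (Fos, Fosb, Jun, Junb, Egr1, Atf3, Ier2, Dusp1, Nr4a1 and Zfp36), all 10 were found by Ensembl identifier among the 55414 genes counted, and all 10 passed the filter on low counts that left 13115 genes. The 3 control libraries came from Pdx1Cre;Trip12+/+ mice and the 3 knockout libraries from Pdx1Cre;Trip12fl/fl mice, both adult and untreated, so that controls and knockouts carry the same Cre recombinase. That Cre is driven by Pdx1, which is active in the epithelial lineages of the pancreas, so blood, vessel and connective tissue cells keep Trip12. Trip12 encodes an E3 ubiquitin ligase. The age in weeks and the way the acinar cells were isolated are not given in the sources used here, and whether a library held 1 animal or a pool is not given either.

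Immediate-early genes are transcribed within minutes of a stimulus, because the factors that act on their promoters, such as SRF with its ternary complex partners and CREB, are already present in the resting cell and need only be phosphorylated. Their messenger RNAs are short-lived, and several of their products feed back to end the response. In the pancreas they are known to respond to secretagogues, to experimental pancreatitis and to the isolation of acinar cells itself.

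The promoters of 8 of the 10 genes were found by symbol in the RefSeq promoter table of build GRCm38.p6, in windows of 250 bases before to 50 bases after the annotated start. Egr1 and Ier2 had no entry. The core of the cAMP response element, the CREB-binding letters TGACG on either strand, was in 6 of the 8 windows (Atf3, Dusp1, Fos, Fosb, Junb and Nr4a1), against 20.8% of all 32851 windows of that length. The full palindrome TGACGTCA, in which the core lies on both strands, was in the Dusp1 window alone among the 8 and in 1.79% of all windows. The 150 bases before the start are shown 5′ to 3′ for these 6 genes because their windows hold the core, and capitals mark it on either strand. The core was added to the motifs after these sequences had been read.
Fos promoter, chr12:85473740-85473889, + strand: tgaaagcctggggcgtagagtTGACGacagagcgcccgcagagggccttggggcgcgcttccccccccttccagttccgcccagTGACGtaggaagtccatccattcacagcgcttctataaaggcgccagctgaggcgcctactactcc
Fosb promoter, chr7:19310046-19310195, - strand: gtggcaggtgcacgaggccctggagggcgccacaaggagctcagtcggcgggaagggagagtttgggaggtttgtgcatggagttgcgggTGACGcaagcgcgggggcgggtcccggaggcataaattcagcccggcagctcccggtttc
Junb promoter, chr8:84978749-84978898, - strand: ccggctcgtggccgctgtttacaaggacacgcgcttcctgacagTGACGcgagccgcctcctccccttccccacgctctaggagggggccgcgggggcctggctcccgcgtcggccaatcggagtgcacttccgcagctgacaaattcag
Atf3 promoter, chr1:191183334-191183483, - strand: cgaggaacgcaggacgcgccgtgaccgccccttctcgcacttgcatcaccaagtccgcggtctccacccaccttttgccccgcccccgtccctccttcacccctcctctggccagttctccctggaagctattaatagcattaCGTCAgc
Nr4a1 promoter, chr15:101266696-101266845, + strand: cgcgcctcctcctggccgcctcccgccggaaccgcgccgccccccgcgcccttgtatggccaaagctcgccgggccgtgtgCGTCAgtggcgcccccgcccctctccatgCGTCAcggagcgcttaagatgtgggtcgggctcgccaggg
Dusp1 promoter, chr17:26508473-26508622, - strand: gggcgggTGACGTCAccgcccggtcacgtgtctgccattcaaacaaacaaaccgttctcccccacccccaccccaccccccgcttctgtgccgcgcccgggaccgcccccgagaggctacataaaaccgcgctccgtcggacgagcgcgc

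Fos carries the core at positions -129 and -66 from the start, Dusp1 has a further copy upstream of the stretch shown, and Nr4a1 holds 4 copies in its window. Zfp36 was the 1 gene of the 8 with a CArG box, the SRF-binding letters CCATAAAAGG, at position -58, against 1.63% of all windows. The AP-1 letters TGANTCA were in none of the 8 windows and in 7.81% of all windows. The EGR letters GCGNGGGCG were in 3 (Fosb, Nr4a1 and Zfp36), against 5.55%. The SP letters GGGCGG were in 7 of the 8, all but Junb, against 35.7%, and can overlap the EGR letters. The TATA box letters TATAAA were in Fos, at position -33, and in Junb, just after the start, against 13.6%. The Jun window held only the SP letters among the motifs searched. These are matches of letters and not measured binding sites. Bases farther than 250 before the start were not searched, nor were Egr1 and Ier2. A motif absent here is therefore absent from these windows alone.

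Values are given as normalised CPM, counts scaled to library size after correction by trimmed mean of M values (TMM), and a gene is called changed when its Benjamini-Hochberg adjusted p over all 13115 tested genes is under 0.05 in edgeR's quasi-likelihood test. The libraries held between 31019500 and 34041901 gene counts. Acinar identity was clear in every library, where 12 acinar marker genes took between 45.7% and 50.8% of gene counts. As normalised CPM, by replicate number, their sum was 477088, 647430 and 608884 in control libraries. In knockout libraries it was 400465, 408168 and 407970. Listed by replicate number, Trip12 itself was at 29.0, 22.3 and 26.4 CPM in control libraries and at 14.4, 14.7 and 13.0 CPM in knockout libraries, and the groups did not overlap. Its log2 fold change was -0.89 (SE 0.14, edgeR adjusted p 0.0256), and the call was lost with library totals (adjusted p 0.125), with sex as a covariate (0.0941) and without any 1 library other than control replicate 1 (0.0676 to 0.140). Counts over the whole gene do not show which exons the allele lacks. In all, 124 genes were called (61 higher, 63 lower), or 0.945% of those tested. Scaling by library totals moved the median tested gene up by 0.41 on the log2 scale, and the calls then split into 1442 higher and 77 lower. Xist and Y-linked counts showed that control replicates 2 and 3 came from females and control replicate 1 and all 3 knockouts from males, so sex and genotype are partly confounded.

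None of the 10 immediate-early genes was called in either direction by edgeR, DESeq2 or limma-voom, and in edgeR none had an unadjusted p under 0.05, against 16.7% of all tested genes. Their levels differed far more between libraries of the same genotype than between genotypes. Within the controls the highest library exceeded the lowest by between 2.90-fold (Nr4a1) and 99.2-fold (Fosb), and within the knockouts by between 3.68-fold (Ier2) and 30.9-fold (Atf3). In all 10 genes the 2 lowest of the 6 libraries were control replicate 2 and knockout replicate 2, a pattern found in 7.17% of all tested genes. The groups overlapped in all 10, whereas they did not overlap in 22.9% of all tested genes.

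**Figure D1:**
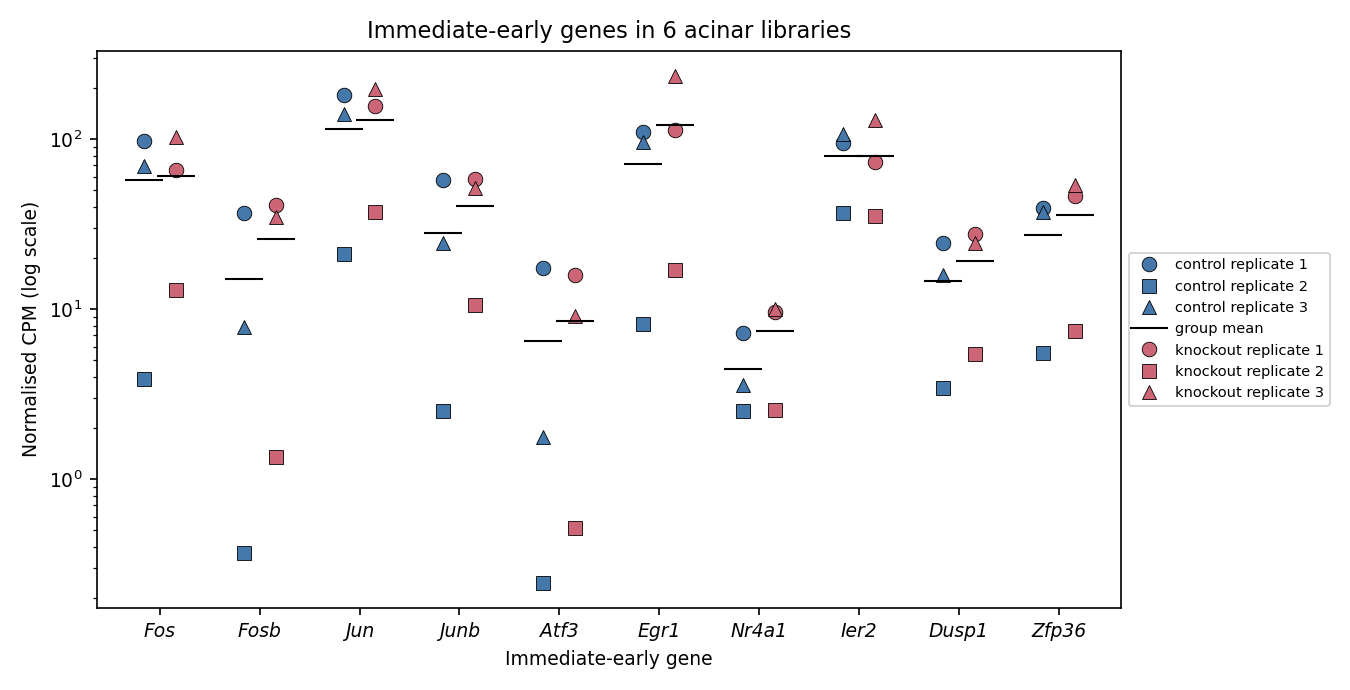
Normalised CPM on a log scale for the 10 immediate-early genes, with 1 point per library coloured by group, shaped by replicate number, and a bar at each group mean. The squares, replicate 2 of either group, lie below the circles and triangles for every gene.

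AP-1 is a family of paired leucine-zipper factors, in which a FOS protein joins a JUN protein to bind DNA. Fos, the founding partner, was at 98.1, 3.86 and 70.0 CPM in the control libraries, in the order of their replicate numbers, and at 66.0, 13.0 and 103 CPM in the knockout libraries. Both replicate 2 libraries were low, and the other 4 lay between 66.0 and 103 CPM with the genotypes interleaved. The control mean was 57.3 CPM ± 48.4 and the knockout mean 60.6 CPM ± 45.2 (SD, n = 3), and the log2 fold change was 0.08 (SE 1.31, edgeR adjusted p 0.984). Jun, the partner with the highest level of the AP-1 genes, was at 182, 21.2 and 141 CPM in control and at 156, 37.5 and 197 CPM in knockout. It showed the same order of replicate 2 against the rest, with a smaller range than Fos. Its means were 115 CPM ± 83.4 and 130.2 CPM ± 82.8 (SD, n = 3), and its log2 fold change was 0.18 (SE 0.98, edgeR adjusted p 0.954).

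Fosb, a FOS relative that also gives a long-lived truncated form, was at 36.7, 0.370 and 7.89 CPM in control and at 41.0, 1.34 and 35.0 CPM in knockout. It had 9 counts in control replicate 2, and its highest library exceeded its lowest 111-fold, the widest range of the 10 genes. The means were 15.0 CPM ± 19.2 and 25.8 CPM ± 21.4 (SD, n = 3), with a log2 fold change of 0.77 (SE 1.72, edgeR adjusted p 0.886). Junb, a JUN relative that can restrain Jun activity, was at 57.1, 2.51 and 24.6 CPM in control and at 58.4, 10.6 and 51.7 CPM in knockout. The replicate 1 libraries were nearly level with each other, and control replicate 3 stood between the high and the low libraries. Its log2 fold change was 0.51 (SE 1.22, edgeR adjusted p 0.894).

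Atf3, a stress-induced zipper factor that pairs with JUN proteins, was at 17.4, 0.246 and 1.78 CPM in control and at 15.9, 0.514 and 9.09 CPM in knockout. Its 6 counts in control replicate 2 and 18 in knockout replicate 2 make the low values imprecise. Both replicate 1 libraries were the highest, in the order control and then knockout. The means of 6.47 CPM ± 9.48 and 8.49 CPM ± 7.69 (SD, n = 3) have errors as large as or near to the means themselves, and the log2 fold change was 0.38 (SE 1.69, edgeR adjusted p 0.944).

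Among the other nuclear factors, Egr1, a zinc-finger factor and a standard readout of ERK signalling, was at 111, 8.17 and 95.9 CPM in control and at 114, 17.0 and 235 CPM in knockout. Knockout replicate 3 was more than 2 times as high as any other library, and control replicates 1 and 3 and knockout replicate 1 lay close together. The means were 71.5 CPM ± 55.4 and 122 CPM ± 109 (SD, n = 3), with a log2 fold change of 0.77 (SE 1.31, edgeR adjusted p 0.847), and without knockout replicate 3 the log2 fold change was -0.13. Nr4a1, an orphan nuclear receptor, was at 7.28, 2.51 and 3.60 CPM in control and at 9.68, 2.54 and 10.1 CPM in knockout. The replicate 2 libraries were level with each other, and the range over all libraries, 4.01-fold, was among the narrowest. Its log2 fold change was 0.73 (SE 0.65, edgeR adjusted p 0.656), the lowest adjusted p of the 10. Ier2, a small nuclear protein, was at 94.9, 36.9 and 108 CPM in control and at 73.3, 35.2 and 129 CPM in knockout. It was the only one of the 10 with its lowest value in knockout replicate 2, and its log2 fold change was -0.01 (SE 0.60, edgeR adjusted p 0.996).

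The list closes with a pair of feedback inhibitors. Dusp1, the phosphatase that inactivates MAP kinases, was at 24.4, 3.45 and 15.9 CPM in control and at 27.6, 5.48 and 24.4 CPM in knockout. Zfp36, tristetraprolin, which binds AU-rich messenger RNAs and speeds their decay, was at 39.2, 5.55 and 37.2 CPM in control and at 46.6, 7.42 and 53.4 CPM in knockout. In both genes replicate 2 was low in each group, and each knockout library was somewhat above the control library of its own number. Their log2 fold changes were 0.39 (SE 0.91, edgeR adjusted p 0.893) and 0.39 (SE 1.03, edgeR adjusted p 0.906). Jun, Junb, Atf3, Dusp1 and Zfp36 overlap other gene models in the GRCm38 annotation, and the counts do not separate strands.

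Per kilobase of exon and averaged over the 6 libraries, Ier2 was the most abundant at 52.3 CPM per kb, followed by Jun at 38.4, Fos at 25.1, Egr1 at 21.6, Junb at 14.8, Zfp36 at 9.10, Dusp1 at 5.10, Atf3 at 3.47, Fosb at 3.26 and Nr4a1 at 1.69 CPM per kb. Every gap between neighbours in this order was smaller than the SD over control libraries of the higher gene, which was 24.8 CPM per kb (n = 3) for Ier2 and 26.2 CPM per kb for Jun. That SD includes spread between libraries that the genes share, so it does not measure how certain the order is. Jun was above Fos, and Zfp36 above Dusp1, in each of the 6 libraries. The order of the other neighbours differed between libraries.

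The levels of these genes followed the replicate numbers, which the labels give as 1 to 3 in both groups, with replicate 2 low in each. What a number stands for is not given. The 10 genes were measured in the same libraries, so their shares are not separate observations. Of the sum of squares of log2 CPM over the 6 libraries, replicate number took between 72.9% (Nr4a1) and 97.6% (Zfp36), with a median of 91.2% over the 10 genes and of 38.7% over all tested genes. Group took between 0.161% (Ier2) and 14.0% (Nr4a1), with a median of 4.67% against 23.3% over all tested genes. The pooled SD within groups, on the log2 CPM scale, had a median of 1.75 over the 10 genes and of 0.26 over all tested genes. Every one of the 10 had a larger within-group SD than at least 90.4% of tested genes, and Fosb than 99.9%.

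**Figure D2:**
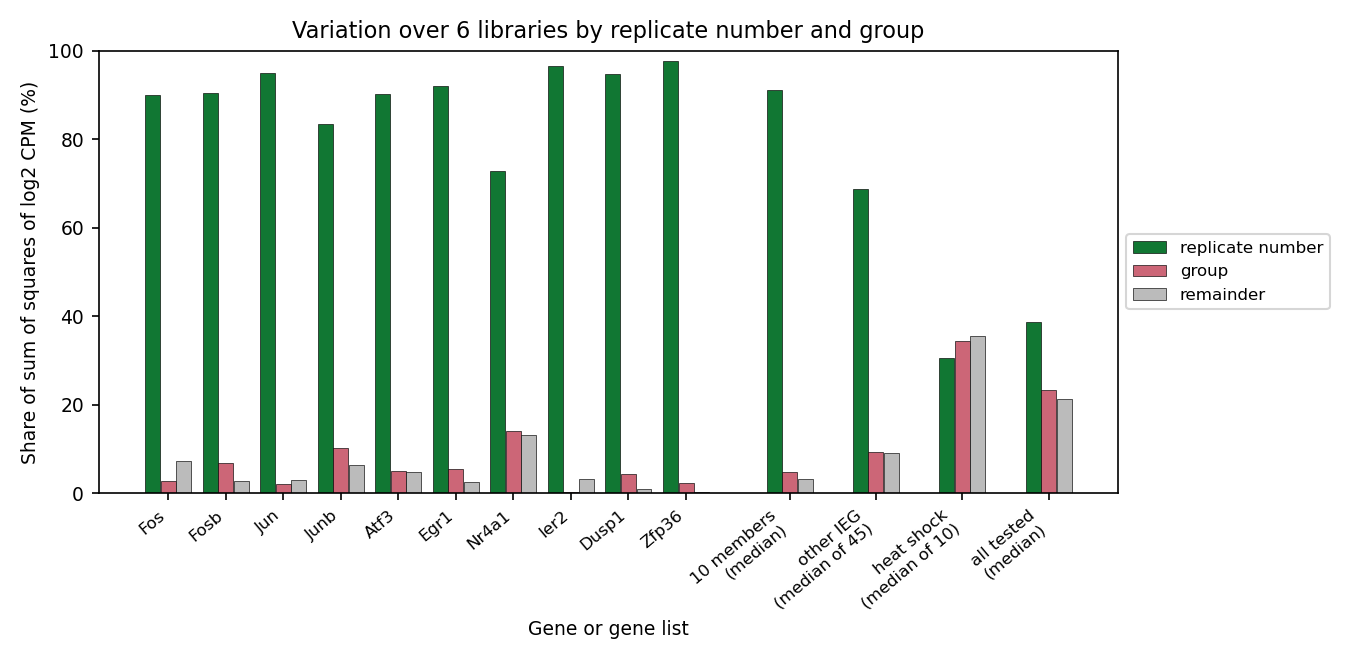
Share of the sum of squares of log2 CPM (percent) taken by replicate number, by group and by the remainder, for each of the 10 genes and as medians over the 10 genes, 45 other immediate-early genes (other IEG), 10 heat-shock genes and all tested genes. Replicate number takes 72.9% or more in each of the 10 genes, and 38.7% in the median tested gene.

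Libraries of the same number also deviated together over all tested genes, so they were compared as pairs. Their deviations from the group means had correlations of 0.630, 0.455 and 0.285 for numbers 1 to 3. Control replicate 3 with knockout replicate 2 reached 0.210. This is weak evidence of pairing, because 3 libraries per group can be matched in only a few ways. The pair ratios and the fits with the replicate block rest on it. Pair 1 set a male control against a male knockout, and pairs 2 and 3 each set a female control against a male knockout. In pair 1 the knockout library stood at between 0.673-fold and 1.33-fold of its control, with 6 of the 10 genes higher and a median of 1.03-fold. In pair 2 the ratio ran from 0.954-fold to 4.22-fold, with 9 higher and a median of 1.93-fold. In pair 3 it ran from 1.20-fold to 5.10-fold, with all 10 higher and a median of 1.82-fold. Over all tested genes 50.3%, 53.7% and 52.5% were higher in knockout in pairs 1 to 3. Fosb, Junb, Egr1, Nr4a1, Dusp1 and Zfp36, 6 of the 10, were higher in knockout in all 3 pairs, as were 24.2% of tested genes, and none was lower in all 3.

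**Figure D3:**
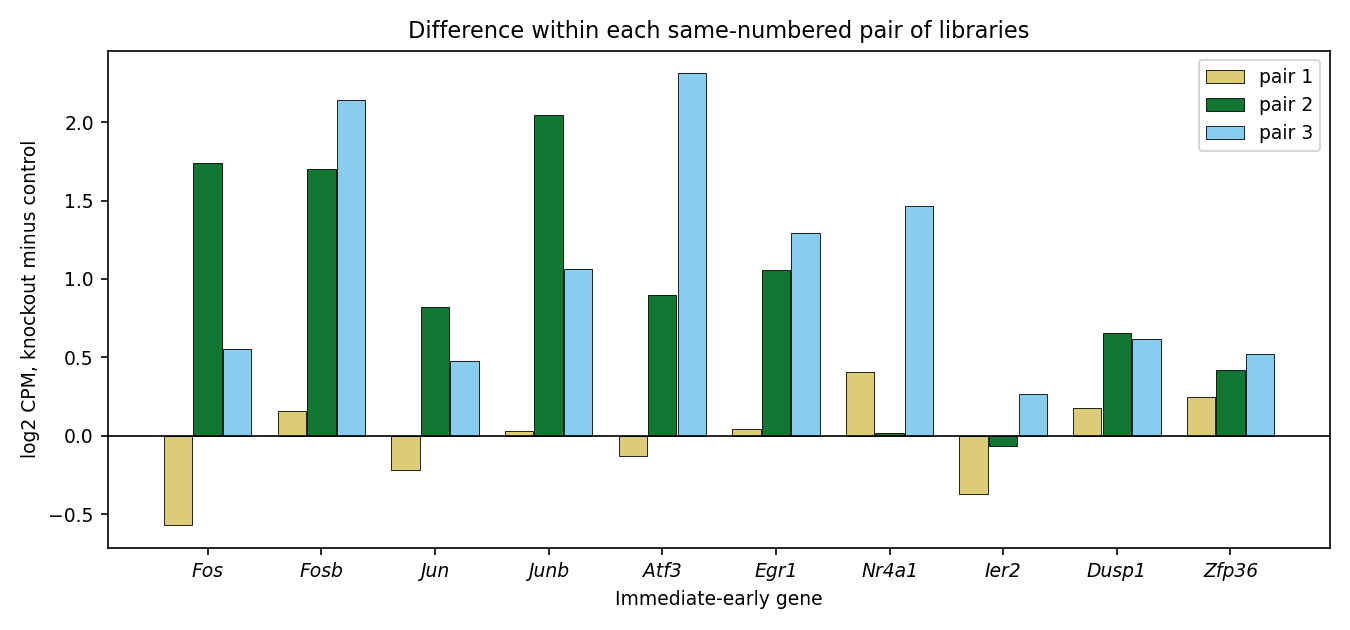
Difference in log2 CPM, knockout minus control, within each same-numbered pair of libraries for the 10 genes. In pair 1 the lowest value is -0.57 (Fos), and in pair 3 every gene is above zero.

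With the replicate number as a block in the edgeR fit, the standard errors of the 10 genes fell from a median of 1.13 to a median of 0.24 on the log2 scale, and still none was called, against 5.99% of all tested genes (3.4% higher and 2.58% lower in knockout). The median log2 fold change of the 10 was 0.39 without the block and 0.58 with it, beside 0.02 and 0.04 over all tested genes, and 9 of the 10 were above zero in each fit. In the blocked fit 4 of the 10 had an unadjusted p under 0.05, all higher in knockout, against 22.4% of tested genes. These were Egr1 (log2 fold change 0.79, SE 0.23, blocked edgeR adjusted p 0.0798), Dusp1 (0.47, SE 0.15, adjusted p 0.0869), Zfp36 (0.39, SE 0.14, adjusted p 0.113) and Nr4a1 (0.67, SE 0.26, adjusted p 0.163). Fosb had the largest blocked log2 fold change, 1.21 (SE 0.52, blocked edgeR adjusted p 0.297), and Ier2 the smallest, -0.06 (SE 0.16, adjusted p 0.871). The blocked result depends on pair 1: without it, in an alternative added after the data were seen, Fosb, Junb, Atf3 and Egr1 were called higher, with log2 fold changes of 2.07, 1.45, 2.03 and 1.17 and blocked edgeR adjusted p of 0.00215, 0.0199, 0.0307 and 0.0150. That fit has 2 libraries per group, and 3.09% of its genes were called. Its controls are both female and its knockouts both male, so sex and genotype cannot be told apart in it. With library totals as the scaling of the blocked fit 5 of the 10 were called higher (Jun, Egr1, Nr4a1, Dusp1 and Zfp36), together with 24.8% of all tested genes. None of the 10 was called in the blocked fits with RLE factors, with upper-quartile factors, without pair 2 or without pair 3, where 5.86%, 6.41%, 0.729% and 6.11% of tested genes were.

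**Figure D4:**
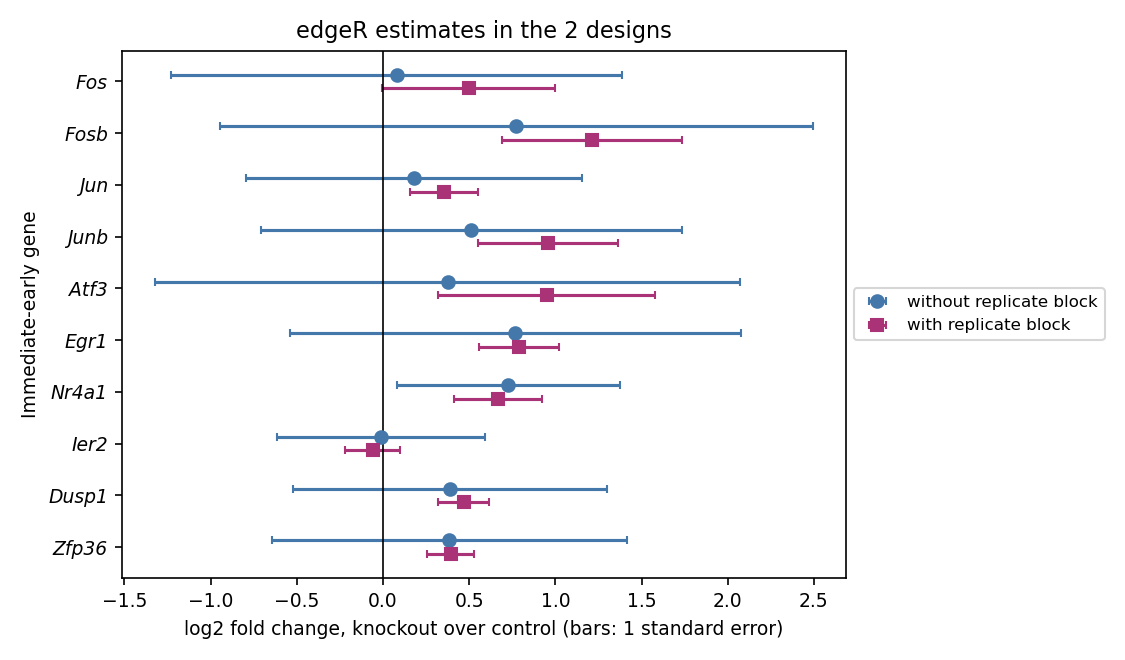
edgeR log2 fold changes, knockout over control, of the 10 genes with bars of 1 standard error, without the replicate block (circles) and with it (squares). The block narrows the bars from a median of 1.13 to 0.24 and moves the estimates little for Egr1, Nr4a1 and Zfp36.

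Sex was also unevenly spread. The male control, replicate 1, lay inside the range of the 3 male knockouts in 9 of the 10 genes, all but Atf3, as did 40.2% of tested genes. With sex as a covariate, which rests on that 1 male control, 8 of the 10 log2 fold changes were below zero, with a median of -0.41, and none was called (edgeR adjusted p from 0.885 to 0.994). The part of sex in the comparison between genotypes cannot be told apart from that of the female control replicates 2 and 3.

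Summed markers of some other cells were also low in replicate 2. The fibroblast, endothelial and duct sums were lowest in replicate 2 of each group, as the 10 genes were. The leukocyte and islet sums were not. The summed level of 10 fibroblast and stellate markers was 119, 27.2 and 35.5 CPM in the control libraries and 127, 30.3 and 103 CPM in the knockout libraries. The 6 endothelial markers summed to 87.5, 20.7 and 32.5 CPM in control and to 109, 31.8 and 36.0 CPM in knockout. The 14 leukocyte markers summed to 97.9, 25.2 and 22.3 CPM in control and to 71.8, 18.9 and 71.5 CPM in knockout, so that control replicate 3 was below control replicate 2. The 7 duct markers summed to 129, 109 and 117 CPM in control and to 215, 131 and 224 CPM in knockout. The 7 islet markers summed to 454, 448 and 349 CPM in control and to 895, 645 and 238 CPM in knockout, and were lowest in knockout replicate 3, where the immediate-early genes were high. All the leukocyte, endothelial and fibroblast markers had counts in every library. None of the markers in these lists was called without the block. With it, 4 of the 12 tested leukocyte markers were called higher and 1 lower. Of the 7 duct markers 3 were called higher and 1 lower, and of the 12 acinar markers 1 was called higher and 2 lower. No endothelial, fibroblast or islet marker was called with the block, where 5.99% of all tested genes were. In these bulk libraries more cells of a type and more RNA per cell cannot be told apart.

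The marker sums and the immediate-early genes did not move by the same factors. From control replicate 2 to control replicate 1 the sums were 3.88-fold (leukocyte), 4.23-fold (endothelial) and 4.36-fold (fibroblast) higher and the 10 genes a median of 11.1-fold higher. From knockout replicate 2 to knockout replicate 1 the sums were 3.80-fold, 3.42-fold and 4.18-fold higher in the same order and the 10 genes a median of 5.30-fold higher. In both of these comparisons all 3 sums were higher together with the 10 genes. Control replicate 3 and control replicate 2 differed 0.883-fold in the leukocyte sum, 1.31-fold in the fibroblast sum and 1.57-fold in the endothelial sum, whereas the 10 genes were between 1.44-fold (Nr4a1) and 21.3-fold (Fosb) higher in replicate 3, with a median of 6.97-fold. Of all tested genes, 0.206% differed by more than the median member in that direction. The same share was 0.755% from control replicate 2 to control replicate 1. It was 1.49% from knockout replicate 2 to knockout replicate 1 and 0.526% from knockout replicate 2 to knockout replicate 3. Single markers differed from their sums. Higher in control replicate 3 than in control replicate 2 were Adgre1 (0.473 against 0.0822 CPM), Csf1r (2.36 against 1.36 CPM) and Col1a1 (4.11 against 1.19 CPM). So were Pecam1 (8.32 against 4.23 CPM) and Cdh5 (2.76 against 1.77 CPM). Lower were Ptprc (1.31 against 2.59 CPM), Cd79a (0.218 against 2.18 CPM) and Cd3e (0.109 against 0.164 CPM). Knockout replicate 3 exceeded knockout replicate 2 by 3.79-fold in the leukocyte sum, 3.41-fold in the fibroblast sum and 1.13-fold in the endothelial sum, and by a median of 6.22-fold in the 10 genes. The leukocyte list was not uniform there: the macrophage genes Adgre1 (3.78 against 0.285 CPM) and Csf1r (8.77 against 1.54 CPM) were higher in knockout replicate 3, while Ptprc (1.90 against 1.97 CPM), the B cell gene Cd79a (0.107 against 0.285 CPM) and the T cell gene Cd3e (0.0536 against 0.200 CPM) were not. The acinar sum was 0.737-fold and 0.981-fold in the comparisons of replicate 1 with replicate 2, and 0.940-fold and 1.00-fold in those of replicate 3 with replicate 2. Beyond these values, the part of other cell types in the levels of the 10 genes was not tested.

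**Figure D5:**
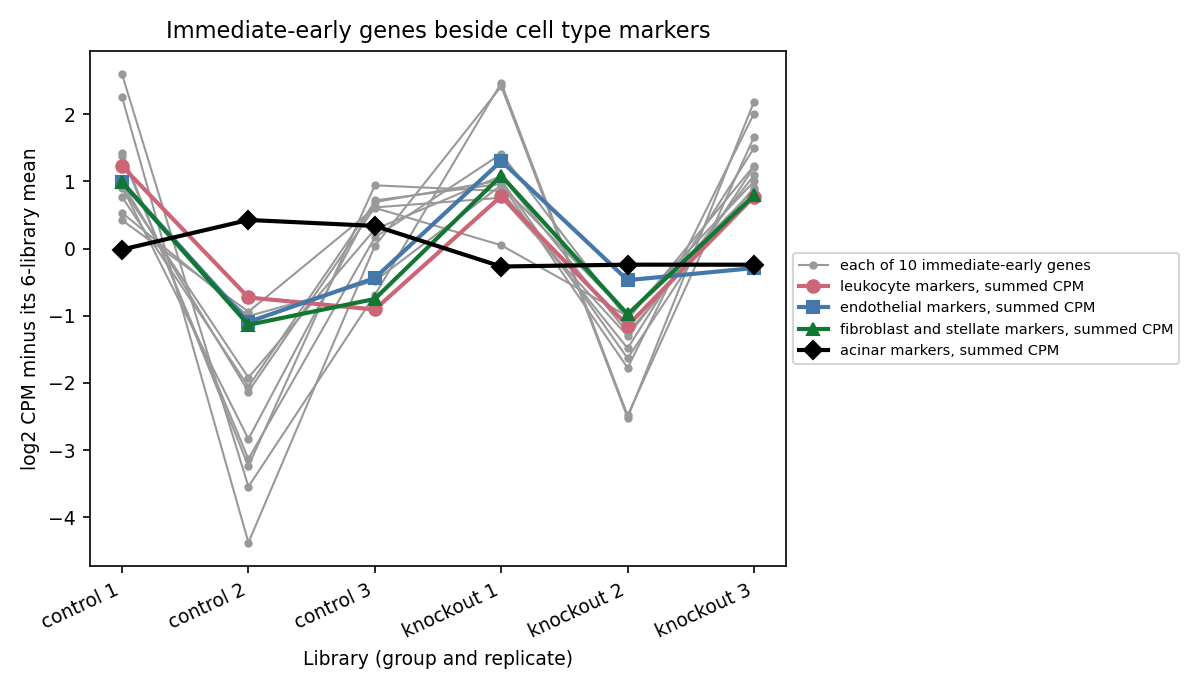
log2 CPM minus its mean over the 6 libraries for each of the 10 genes (grey) and for the summed CPM of 4 marker lists (colours), and the lines only link the values of a gene or list. Control replicate 3 has high immediate-early genes beside leukocyte, endothelial and fibroblast sums near those of control replicate 2.

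The other genes of the response were taken from a list of 47, of which 45 were tested. None of the 45 was called in the main fit, without the block, and 1 had an unadjusted p under 0.05, beside 16.7% of all tested genes. Their median log2 fold change was 0.13, and replicate number took a median of 68.8% of their sum of squares, between that of the 10 genes and that of all tested genes. In 29 of the 45 the lowest library of each group was replicate 2, against 14.5% of all tested genes and all 10 of the main set. The highest log2 fold changes without the block were in Gadd45b (1.17), Ccn1 (1.12) and Egr2 (1.12), and the lowest in Dusp2 (-0.95), Maff (-0.69) and Ier5 (-0.63), with edgeR adjusted p from 0.525 to 0.765.

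With the block 7 of the 45 were called, 6 higher and 1 lower, where 5.99% of all tested genes were called, 3.4% higher and 2.58% lower. Gadd45b, a growth arrest and stress protein, was at 4.32, 1.77 and 8.25 CPM in control and at 9.49, 4.34 and 18.5 CPM in knockout. Each knockout library was higher than the control of its number by more than 2-fold, although the groups overlapped, and the blocked log2 fold change was 1.19 (SE 0.15, edgeR adjusted p 0.00152). Ccn1, a secreted matrix protein, was at 12.5, 0.616 and 3.02 CPM in control and at 21.4, 1.46 and 12.8 CPM in knockout, with a blocked log2 fold change of 1.35 (SE 0.25, edgeR adjusted p 0.0151). It was highest in knockout replicate 1 and lowest in replicate 2 of each group, and its log2 fold change was -0.07 with sex as a covariate.

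Nfkbia, the inhibitor of NF-kappaB, was at 10.1, 6.20 and 10.4 CPM in control and at 16.6, 8.91 and 20.7 CPM in knockout (blocked log2 fold change 0.75, SE 0.15, edgeR adjusted p 0.0133). Rhob, a small GTPase, was at 35.7, 10.3 and 23.2 CPM in control and at 56.5, 16.0 and 75.1 CPM in knockout (1.00, SE 0.21, adjusted p 0.0241). Both were higher in knockout in every pair. Myc, a growth-promoting factor, had a blocked log2 fold change of 0.52 (edgeR adjusted p 0.0440) and Gadd45g of 0.88 (edgeR adjusted p 0.0463), and both had replicate 3 as their highest library in each group. Without knockout replicate 3 and without the block, the log2 fold changes of Myc and Gadd45g were -0.03 and -0.03. Trib1, a pseudokinase, was the 1 called lower, from 9.42 CPM ± 2.66 to 6.46 CPM ± 2.02 (SD, n = 3; blocked log2 fold change -0.55, edgeR adjusted p 0.0498), and its adjusted p was 0.583 in the blocked fit with library totals. Gadd45b was called in every blocked fit run. Of the other 6, Ccn1 alone kept its call without pair 1, none without pair 2, and Ccn1, Nfkbia and Rhob without pair 3. Gadd45g was also lost with RLE factors (edgeR adjusted p 0.0517).

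Genes that carry the signal to these promoters are set beside the shares over all tested genes. Of 14 SRF, ternary complex and CREB factors, all tested, none was called without the block. There 2 had an unadjusted p under 0.05, beside 16.7% of all tested genes. With the block 1 was called higher, beside 5.99% of all tested genes called in either direction. That gene was Crtc1, a CREB coactivator, at 6.90, 6.45 and 6.76 CPM in control and at 10.7, 10.3 and 9.79 CPM in knockout. Its groups did not overlap, as in 35.7% of the 14 factors and 22.9% of all tested genes. The log2 fold change of Crtc1 was 0.62 in each fit, and the edgeR adjusted p was 0.0614 without the block and 0.0296 with it. The call was lost in the blocked fits without pair 1 (adjusted p 0.0971) and without pair 2 (adjusted p 0.263). The within-group SD of these 14 factors had a median of 0.21 and a maximum of 0.54 on the log2 CPM scale, beside the median of 0.26 over all tested genes.

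Of 22 tested genes of the MAP kinase cascades edgeR called none in either fit. An unadjusted p under 0.05 was reached by 1 gene in each fit, beside 16.7% and 22.4% of all tested genes. The median log2 fold change of the 22 was -0.05. Their within-group SD had a median of 0.15 and a maximum of 0.79 on the log2 CPM scale, and 2 of the 22 had replicate 2 as the lowest library of each group. Of 11 tested zipper partners of FOS and JUN edgeR called none in either fit, with 3 at an unadjusted p under 0.05 without the block and 4 with it, all higher in knockout, beside 16.7% and 22.4% of all tested genes in either direction. Their median log2 fold change was 0.22.

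Heat-shock genes, which are also known to be induced by cell isolation, stood near the background of all tested genes in this pattern. Of 10 tested, 1 (Hspa1b) had replicate 2 as the lowest library of each group, against 14.5% of all tested genes, and replicate number took a median of 30.6% of the sum of squares, against 38.7%. None was called by edgeR without the block, where 2 had an unadjusted p under 0.05, beside 16.7% of all tested genes. With it Hspa1b was called higher, from 0.239 CPM ± 0.286 to 1.28 CPM ± 0.417 (SD, n = 3; blocked log2 fold change 2.65, SE 0.57, edgeR adjusted p 0.0208). That call was lost without pair 2 (edgeR adjusted p 0.207), and its near-identical copy Hspa1a makes these counts uncertain.

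The genes whose profile over the 6 libraries was most like that of the 10 were looked for by the root mean square difference between centred log2 CPM values. The median profile of the 10 genes spanned 3.69 log2 units, from control replicate 2 to knockout replicate 3. Outside the lists, the 5 closest tested genes were Sh3pxd2b (difference 0.15 log2 units), Dab2 (0.21), Chp2 (0.32), Cmklr1 (0.33) and Fndc1 (0.33). Dab2, an endocytic adaptor, was at 3.53, 0.370 and 2.22 CPM in control and at 4.10, 0.542 and 4.64 CPM in knockout. All 5 are weakly expressed, with 1 to 9 counts in control replicate 2. Among the other immediate-early genes the closest were Egr2 (0.48), Klf6 (0.52) and Rhob (0.62). Of the 10 themselves Jun lay closest to their median profile (0.20) and Fosb farthest (1.21).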

How the data were processed

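Total RNA was extracted with Trizol and poly-A enriched, per the labels' protocols. The authors deposited raw counts per gene for each library, once over both strands and once for either strand. STAR 2.7.10a and build GRCm39 are named per the submitters' processing notes, and the annotation is not given in the sources used here. The forward strand held between 50.1% and 50.3% of the strand counts, so unstranded counts were used, and the 4 rows outside genes were left out.

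Names and exon lengths came from GENCODE M21 on GRCm38, which held 52133 of 55414 identifiers (94.1%). Promoter sequences carry their own build and were matched by symbol. edgeR 4.0.16 in R 4.3.3 was run on genes passing filterByExpr, with TMM factors, the robust quasi-likelihood fit and Benjamini-Hochberg adjustment. A prior count of 2 was used for log2 CPM. The SE is the log2 fold change divided by the square root of F. The code was tested on simulated data. Alternatives were other scalings, other filters, DESeq2 1.42.0, limma-voom (limma 3.58.1), a replicate block, a sex covariate and leaving out each library.

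Deviations from the group means, across genes, had correlations of 0.630, 0.455 and 0.285 in same-numbered pairs, all over 0.1, so the numbers were taken to pair the libraries, although control 3 with knockout 2 also reached 0.210; what a number stands for is not given. No 2 libraries agreed within sampling noise. Titles call the samples biological replicates without saying whether they are separate animals, so p-values measure the spread between these libraries. Members and lists were chosen with earlier results of these data known. The named genes are Trip12, the 10 members, list genes called with or without the block, the 3 highest and 3 lowest of the other immediate-early genes and the 5 closest profiles.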

Additional observations from a re-analysis of the deposited data

How the results depend on the processing

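No member was called in any unblocked fit run. The number of genes called, 124, was 1519 with library totals, 850 without a filter, 210 with 10 counts or more in each library, 594 with DESeq2, 21 with sex as a covariate and 20 to 461 with 1 library left out. With the replicate block it was 785, or 769 with RLE factors, 3259 with library totals, 841 with upper-quartile factors, 396 without pair 1, 100 without pair 2 and 832 without pair 3. Members called with the block numbered 5 with library totals and 4 without pair 1. Other immediate-early genes called, none in the main fit, numbered 1 without a filter and 0 to 1 with 1 library left out. With the replicate block they numbered 7, or 6 with RLE factors in it, 14 with library totals, 7 with upper-quartile factors, and 2, 1 and 5 without pairs 1, 2 and 3. The log2 fold change of Trip12 was -0.49 with library totals, -1.05 with sex as a covariate, -0.98 to -0.82 with 1 library left out, -0.46 in the block with library totals and -1.02 in the block without pair 2. With sex as a covariate the log2 fold changes turned to -0.69 for Fos, -0.51 for Fosb, -0.48 for Jun, -0.51 for Junb, -1.03 for Atf3, -0.35 for Dusp1 and -0.13 for Zfp36. With 1 library left out they ran from -0.54 to 0.70 for Fos, 0.21 to 2.61 for Fosb, -0.31 to 0.67 for Jun, -0.0249 to 1.55 for Junb, -0.44 to 3.02 for Atf3, -0.13 to 1.29 for Egr1, 0.45 to 1.26 for Nr4a1, -0.56 to 0.34 for Ier2, -0.0757 to 0.96 for Dusp1 and -0.10 to 0.87 for Zfp36. Ier2 was 0.38 with library totals, 0.0068 with upper-quartile factors, 0.0060 with at least 10 counts in every library, 0.36 in the block with library totals and 0.0821 in the block without pair 1, and Fos was -0.0091 in the block without pair 2. The cause of these changes was not tested. The blocked fits with other scalings and without a pair were added after seeing the data. Fosb and Atf3 were not tested with at least 10 counts in every library. Depth limits Fosb and Atf3 in control replicate 2, with 9 and 6 counts.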
